A study of Drosophila melanogaster with 27 samples.

Results

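The comparison described here covers the opening step of prepupal development in Drosophila melanogaster, from the white prepupa at pupariation (0 h) to the prepupa 2 h later. The arrays were chosen by their labels alone, 3 titled as 0 h prepupae and 3 titled as 2 h prepupae, which makes 6 of the 27 arrays of the series. The series followed w1118 animals through 9 stages, from last-instar larvae taken at -18 and -4 h, over prepupae taken every 2 h up to 10 h, to animals at 12 h. Both groups compared here were untreated w1118 whole animals of the same stock, staged by the time of pupariation, and the labels name no allele, transgene or treatment beyond the w1118 background that all animals share. RNA came from 10 animals per sample, so that each array is a pool, and about 12 µg of total RNA was labelled for an Affymetrix Drosophila Genome Array. The methods describe independent triplicates, and the sex of the pooled animals was not given in the sources used here.

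Pupariation follows the large pulse of the steroid 20-hydroxyecdysone (20E) at the end of larval life, and the hours after it fall between that pulse and the next. The hormone binds the EcR and USP receptor pair, which switches on a small group of early regulators, and these in turn act on late genes in each tissue. In the same hours the larval cuticle hardens and darkens into the puparium, the salivary glands turn from glue to other secreted products, and the larval midgut and muscles begin their breakdown.

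The values are array intensities on the linear scale that the authors deposited, and levels of different probe sets cannot be set against each other. The 6 arrays were alike in their medians, which lay between 253.8 and 260.4, and replicates correlated with r between 0.986 and 0.992 for 0 h and between 0.979 and 0.99 for 2 h. The median SD between replicates was 0.096 at 0 h and 0.113 at 2 h on the log2 scale. It was as high as 0.289 at -18 h, and the fit pooled the spread of all stages. Of the 13966 probe sets, 12854 exceeded a floor of 60.26, the 10th percentile of all values, on every array of some stage, and these were tested. The fat body markers Lsp2, Fbp1 and Fbp2 and the nervous system markers nSyb and brp were far above the floor at both stages. Since most probe sets exceed the floor, this says little about the tissues in the samples.

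One array stood apart in a defined set of transcripts. In 2 h replicate 3, 32 probe sets lay at least 2-fold above both other 2 h arrays, against 3 and 2 such probe sets in 2 h replicates 1 and 2, and 1, 1 and 9 in the 0 h replicates. Sgs3, which encodes a salivary glue protein, read 1971, 3196 and 2028 on the 0 h arrays, 409 and 405 on 2 h replicates 1 and 2, and 5719 on replicate 3. Lcp1, a larval cuticle protein gene, read 1134, 4099 and 2547 at 0 h and 295, 250 and 5883 at 2 h. All 32 probe sets were at least 2-fold higher at -4 h than at 4 h in the series, as were 2.85% of all tested probe sets. They held 6 of the 8 glue genes measured, 3 of the 9 larval cuticle genes, Eig71Ee, the protease gene Jon66Ci and Ddc. Replicate 2 of 2 h departed the other way, with 24 probe sets at least 2-fold below both other 2 h arrays, where the other 5 arrays had 0 to 6. Whether the pools differed in the age or state of their animals was not tested.

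Between 0 and 2 h, 339 probe sets changed, or 2.64% of those tested: 101 were higher at 2 h (0.786%) and 238 were lower (1.85%). Counts of called members in the gene lists below are to be read against these shares. A change was called at a Benjamini-Hochberg adjusted p under 0.1 in limma's moderated test together with a change of at least 1.5-fold, and adjusted p-values come from that fit across all 12854 probe sets, or from the same fit with an array left out where that is said. The 0 and 2 h arrays did not overlap for 100 of the 101 higher and 227 of the 238 lower probe sets, where 19.4% of all tested probe sets showed no overlap. The calls were made on these same arrays, so that this is a description and no separate support for them. The median change was 1.97-fold among the higher and 2-fold among the lower probe sets, and 5 rose and 12 fell by at least 4-fold. Without 2 h replicate 3, 74 probe sets were higher (0.576%) and 240 lower (1.87%), 314 in all (2.44%), of which 73 and 215 were among those called with all arrays. In RNA from whole animals, fewer cells of a type and less RNA per cell cannot be told apart.

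**Figure D1:**
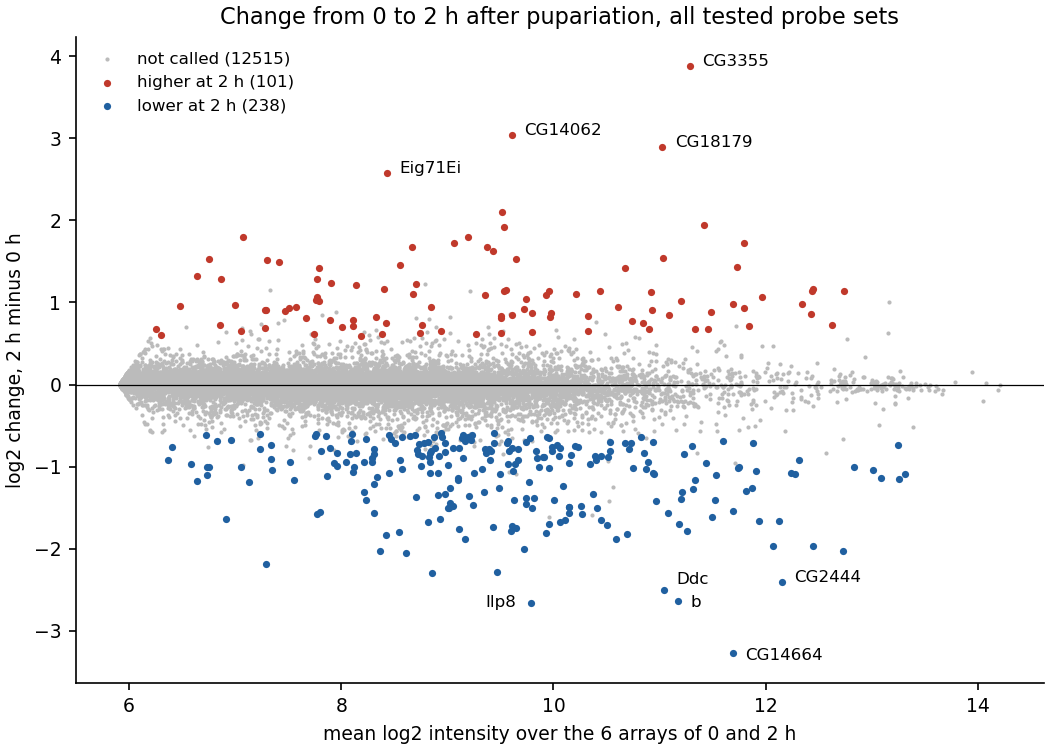
Log2 change from 0 to 2 h (vertical axis) against the mean log2 intensity of the 6 arrays (horizontal axis) for 12854 probe sets, with the 101 higher probe sets in red and the 238 lower ones in blue. The largest rise, of CG3355, reached 3.88, and the largest fall, of CG14664, reached -3.28.

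The largest increase was that of CG3355, annotated as a serine protease, which read 731, 1009 and 372 at 0 h and 9656, 8539 and 10606 at 2 h. It rose 14.7-fold (log2 change 3.88 ± 0.21 SE, adjusted p = 3.16e-11), and its mean went on to 16035 at 4 h. CG18179, of the same enzyme class, rose from 752, 929 and 638 to 5668, 4630 and 7045, which is 7.46-fold, and CG8329 rose 3.31-fold. These genes were picked by their size of change among called probe sets whose 0 and 2 h arrays did not overlap. Of the 26 listed trypsin and Jonah genes, serine proteases as well, none rose and 14 fell.

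CG14062 read 264, 345 and 218 at 0 h and 2006, 2104 and 2649 at 2 h, an 8.25-fold rise (log2 3.04 ± 0.2), and reached a mean of 9031 at 8 h. Rgk1, a small GTPase of the Rad and Gem family, went from 479, 386 and 241 to 1685, 1229 and 1690 (4.28-fold, adjusted p = 4.62e-05). Its 4 h mean of 1613 differed little from its 2 h mean of 1535, so that most of its rise fell in this step. ImpL1, an ecdysone-inducible gene of imaginal discs, read 416, 399 and 334 and then 1665, 982 and 1829 (3.78-fold, adjusted p = 0.0127), and its mean climbed further to 7279 at 4 h and 9323 at 6 h. Mur89F, a mucin-related gene, rose 3.2-fold and CG9192 3.48-fold. In ImpL1, CG9192 and CG8329, replicate 2 was the lowest of the 2 h arrays.

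The largest decrease was that of CG14664, from 10558, 10084 and 10229 at 0 h to 1424, 1274 and 659 at 2 h. It fell 9.69-fold (log2 -3.28 ± 0.24, adjusted p = 7.48e-09), and its mean was 170 at 4 h. Ilp8, which encodes a relaxin-like peptide released by growing or damaged discs, changed with very little spread between replicates. Its 0 h arrays read 2244, 2239 and 2187 and its 2 h arrays 355, 349 and 354, a 6.3-fold fall (log2 -2.66 ± 0.09, adjusted p = 3.32e-15). Its mean was 416 at -4 h and 342 at both 4 and 6 h, and it was high again only at 10 h, at 1794, so that 0 h stood out from both of its neighbouring stages. Whether its level at 2 h is background of the probe set, which would make the fold a lower bound, was not tested.

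CG2444 fell 5.29-fold, from 9836, 11017 and 10530 to 1655, 2188 and 2132, and CG13722 fell 4.92-fold. The gene sona, which encodes a metalloprotease of the ADAMTS family, read 335, 375 and 297 and then 65.3, 72 and 83.2, a 4.57-fold fall, and a further probe set of sona fell by 1.33 on the log2 scale. CG9822 fell 4.14-fold, the mucin gene Muc26B 4.07-fold and CG15096 4.03-fold. These genes, too, were picked among probe sets without overlap, so that all their 2 h arrays lay under all 0 h arrays by that choice.

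**Figure D2:**
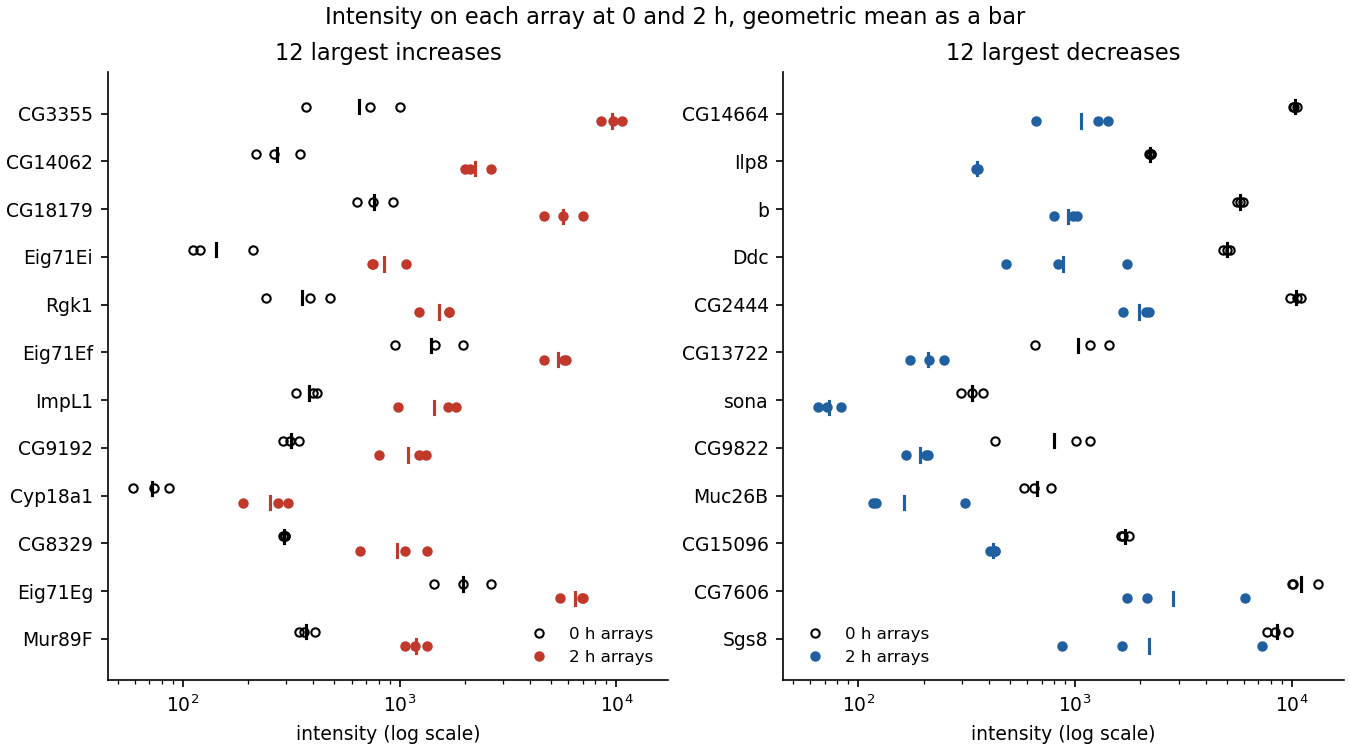
Intensity (log axis) on each 0 h array (open circles) and 2 h array (filled circles) for the 12 largest increases and the 12 largest decreases among named probe sets without overlap, with the geometric mean of each stage as a bar. CG3355 moved from 372 to 1009 up to 8539 to 10606, and Ilp8 from 2187 to 2244 down to 349 to 355.

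Most genes of the 20E cascade gave no call. Of 19 regulators and early ecdysone-inducible genes measured, 1 was higher and 4 were lower at 2 h. Of all tested probe sets, 0.786% were higher and 1.85% lower. The median change was -0.08 on the log2 scale, where all tested probe sets had a median of 0. A missing call does not show that a level held, since the SE reached 0.46 on the log2 scale for Hr3. The early gene Eip78C, which encodes a nuclear receptor, read 999, 1158 and 904 at 0 h and 334, 257 and 312 at 2 h. It fell 3.39-fold (log2 -1.76 ± 0.14, adjusted p = 1.6e-08), and its level went on to a mean of 114 at 6 h. Eip74EF, an ETS-domain early regulator, read 992, 1228 and 949 and then 529, 424 and 539, without overlap. It was 2.12-fold lower (adjusted p = 0.0612), a call that was lost when any single array of 0 or 2 h was left out (adjusted p 0.114 to 0.282).

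The other 2 lower members were MsrA, the methionine sulfoxide reductase gene also known as Eip71CD, and Eip63F-1, which encodes a calcium-binding protein. MsrA went from 749, 795 and 753 to 329, 259 and 324, a 2.53-fold fall. Eip63F-1 went from 149, 135 and 121 to 75.3, 56.2 and 71.3, a 1.96-fold fall with the 2 h level close to the floor. The member that rose was Cyp18a1, whose enzyme inactivates 20E. It read 73.5, 86.2 and 59 at 0 h and 305, 190 and 274 at 2 h, a 3.46-fold rise (log2 1.79 ± 0.25, adjusted p = 5.06e-05) from a level at the floor, and its mean reached 798 at 8 h.

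The receptor genes themselves gave no call. EcR read 522, 503 and 589 at 0 h and 511, 604 and 535 at 2 h (log2 0.03 ± 0.1, adjusted p = 1), and a weaker probe set of EcR also gave 0.03. The value for its partner usp was 0.04 ± 0.26, that for the early gene br -0.16 ± 0.15 on the probe set with the highest mean over the series, and that for the nuclear receptor gene Eip75B 0.12 ± 0.12. The other br probe sets gave 0.04 and, on the one that was brighter at 0 and 2 h (813 to 507), -0.68 (adjusted p = 0.668). Hr3, the nuclear receptor gene that acts between early and late prepupal genes, read 456, 433 and 311 and then 529, 526 and 662, without overlap. This is 1.44-fold with an SE of 0.46 on the log2 scale (adjusted p = 1). The SE draws on the spread at all stages, such as an SD of 184 on a mean of 436 at 4 h. A weaker probe set of Hr3 gave 0.03. The competence factor gene ftz-f1 was at or below the floor on all 6 arrays, and no fold can be given. Hr4, Hr39, Hr78, Eip93F, E23, Kr-h1, Eip63E and Cth had log2 values between -0.44 and 0.3, none past the test. Kr-h1 passed it without 2 h replicate 3 (log2 -0.7, adjusted p = 0.0762).

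Among 7 further regulators that answer 20E directly, CG11275 fell 2.11-fold, from 755, 702 and 650 to 362, 324 and 315 (adjusted p = 0.000457). Sox14, an HMG-box factor gene, fell in every array, from 2010, 2115 and 2217 to 1527, 1590 and 1708. Its change of -0.4 ± 0.09 passed the p limit (adjusted p = 0.0125) and not the fold limit. The values for brat (-0.57), hry (-0.48), cbt (-0.07), vri (0.07) and Blimp-1 (0.17) did not pass the test. The shd gene, whose P450 enzyme converts ecdysone to 20E, was the 1 called member of 6 genes of ecdysteroid synthesis, and fell 2-fold from 201, 190 and 173 to 88.6, 83.5 and 112.

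Enzymes that tan the puparium fell in part. Of 9 measured, 5 were lower and none higher at 2 h, with a median of -1.01 on the log2 scale, and the same count of 5 held without 2 h replicate 3. All 9 were listed as tanning enzymes, so that a shared route does not set the 5 apart from the uncalled members. The ple product, tyrosine hydroxylase, makes dopa and the Ddc product makes dopamine from it, the b product makes β-alanine, the e product joins β-alanine to dopamine, and the Pu product opens the synthesis of the cofactor that tyrosine hydroxylase needs.

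The b gene fell most of these, from 5558, 5743 and 5962 at 0 h to 979, 1016 and 800 at 2 h (6.21-fold, log2 -2.63 ± 0.14, adjusted p = 3.16e-11). Ddc went from 4833, 5039 and 5207 to 832, 478 and 1732 (5.69-fold, log2 -2.51 ± 0.34), with replicate 3 the highest of the 2 h arrays. Pu fell 3.68-fold, from 2766, 2735 and 3408 to 891, 609 and 956. The e gene went from 8132, 7543 and 8207 to 2942, 2286 and 2366 (3.16-fold), and ple from 10596, 11184 and 9266 to 5189, 5967 and 4357 (2.01-fold). No 2 h array reached a 0 h array in any of them. The remaining members, amd, stw, speck and t, had log2 values of 0.03 to 0.18 with adjusted p = 1 each. Dhpr, picked after its values were seen because its enzyme recycles the same cofactor, fell 2.47-fold (adjusted p = 0.000119).

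The late genes of the 71E puff, the L71 or Eig71E genes, moved the opposite way in a block. Late genes among these neighbours encode small secreted peptides made by the salivary gland after pupariation. The list was not limited to genes with that course, since Eig71Ee was already high in larvae. Of 11 measured, 8 were higher and 1 was lower at 2 h, and the median was 1.14 on the log2 scale. Eig71Ei rose most, from 211, 121 and 112 to 746, 1070 and 753 (5.95-fold, log2 2.57 ± 0.23, adjusted p = 1.4e-07). Eig71Ef went from 1960, 1451 and 948 to 5832, 4617 and 5706 (3.85-fold), and Eig71Eg from 2646, 1970 and 1435 to 7024, 5490 and 6967 (3.3-fold). Eig71Eh rose 3.19-fold, Eig71Ec 2.24-fold, Eig71Ed 2.2-fold, Eig71Eb 1.97-fold and Eig71Ea 1.66-fold. The last of these had an adjusted p of 0.0998 and lost its call without 2 h replicate 3.

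Levels within the L71 group differed in their earlier course. Eig71Ea had a mean of 351 at -4 h, 4954 at 0 h and 8158 at 2 h, so that most of its rise from -4 to 2 h came before 0 h. Eig71Ei had 58.8, 148 and 856, and within the same span it rose chiefly from 0 to 2 h. The mean of Eig71Ei then climbed further, to 902 at 4 h, 2111 at 6 h and 3170 at 8 h. Eig71Ek was near or below the floor and Eig71Ej did not move (log2 0.03). The member that fell, Eig71Ee, read 2996, 4415 and 4257 at 0 h and 934, 833 and 3973 at 2 h, with replicate 3 inside the 0 h range. Its fall was 2.63-fold with all arrays (adjusted p = 0.0177) and -2.12 on the log2 scale without replicate 3. Its larval mean of 10959 at -4 h was above its 0 h level, as was that of the rising member Eig71Eh, with 345 at -4 h and 230 at 0 h.

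**Figure D3:**
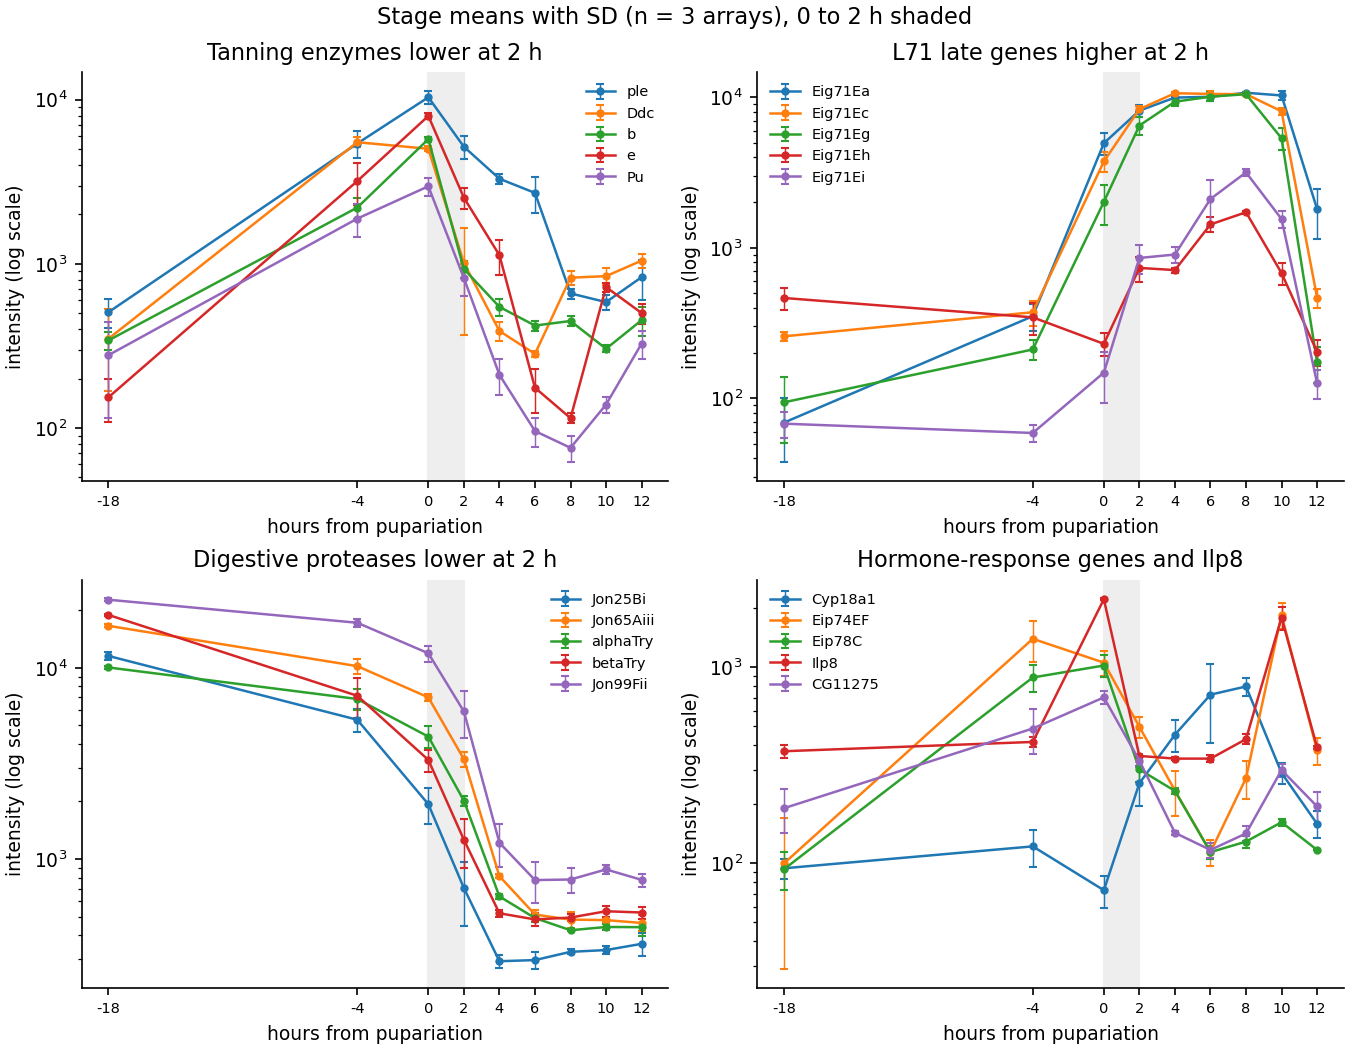
Mean intensity (log axis) with SD of 3 arrays at each of the 9 stages, in hours from pupariation, for tanning enzymes, L71 genes, digestive proteases, and hormone-response genes with Ilp8, with the step from 0 to 2 h shaded. The tanning enzyme b went from 5754 to 932 and Eig71Ei from 148 to 856 across the shaded step, and Ilp8 read 2223 at 0 h and 1794 at 10 h, against 342 to 430 at the other stages.

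The salivary glue genes have to be read with the array that stood apart. The Sgs proteins are made by the larval salivary gland and expelled at pupariation to fix the animal to its surface. With all arrays 3 of 8 glue genes were lower at 2 h, none was higher, and the median was -1.43 on the log2 scale. Without 2 h replicate 3, 6 of 8 were lower and the median was -2.67. Set against the 0 h mean, the median of the 8 genes was -2.31 in 2 h replicate 1, -2.65 in replicate 2 and 0.38 in replicate 3. Since that array was left out for its glue transcripts, the count of 6 is a description.

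Sgs7 read 12230, 15955 and 13366 at 0 h and 2902, 886 and 14774 at 2 h. It was 4.1-fold lower with all arrays (adjusted p = 0.0335) and had a change of -3.1 without replicate 3. Sgs8 read 7675, 9636 and 8324 and then 1637, 870 and 7306, and Sgs5 read 2585, 3374 and 3477 and then 425, 330 and 4855. In Sgs8 even the highest 2 h array lay below the 0 h arrays, while Sgs7 and Sgs5 overlapped, and all 3 calls were lost when only the 6 arrays of 0 and 2 h were fitted. Sgs4 (1519, 2744 and 1272, then 241, 255 and 3024) and Sgs1 (407, 821 and 563, then 317, 285 and 1729) did not pass the test with all arrays, nor did Sgs3. Without replicate 3 their log2 changes were -2.82, -0.93 and -2.52, and all 3 passed. The sign of Sgs1 turned when either other 2 h array was left out, to 0.29 without replicate 1 and 0.37 without replicate 2. The salivary genes ng3 and ng4 stayed flat at 0 and 0.05.

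Several genes outside the glue list also read highest at 2 h in replicate 3. Sgs5bis read 969, 3250 and 1216 at 0 h and 151, 110 and 1973 at 2 h, and CG7606 read 10140, 13238 and 10018 and then 2155, 1740 and 6051. Lcp1, Lcp2 and Lcp4 had log2 values of -1.59, -1.42 and -0.66 with all arrays, none past the test, and -3.07, -2.79 and -1.32 without replicate 3, all past it. The pupal cuticle protein gene Pcp fell 2.96-fold, from 1241, 2573 and 2322 to 537, 416 and 1275.

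**Figure D4:**
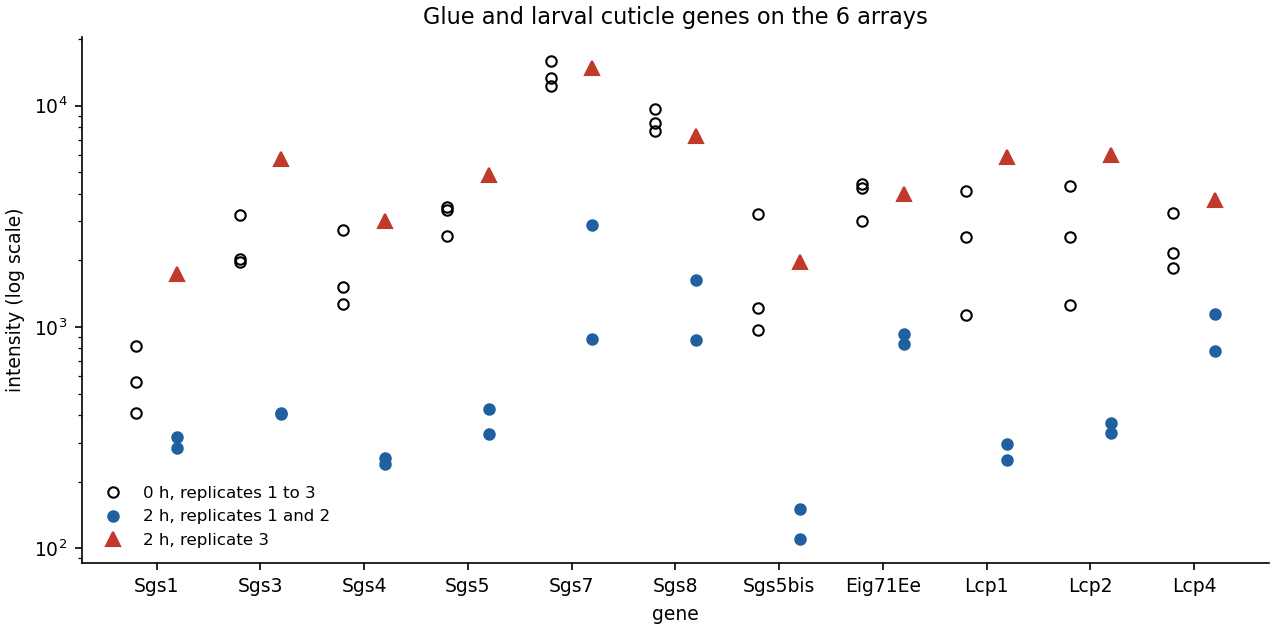
Intensity (log axis) of 7 Sgs genes, Eig71Ee and 3 larval cuticle genes on the 0 h arrays (open circles), 2 h replicates 1 and 2 (blue circles) and 2 h replicate 3 (red triangles). For Sgs3, replicates 1 and 2 of 2 h read 409 and 405, whereas replicate 3 read 5719, above the 0 h arrays.

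Many digestive proteases of the midgut were lower at 2 h. Of 26 trypsin and Jonah genes measured, 14 were lower, none was higher and 12 gave no call, with a median of -0.86, and 13 were lower without 2 h replicate 3, where the median was -0.93. Jon65Aiii varied little between replicates, reading 6909, 7364 and 6736 and then 3512, 2970 and 3494 (2.11-fold, log2 -1.08 ± 0.09, adjusted p = 9.5e-08). The trypsin gene alphaTry went from 4594, 4797 and 3707 to 2066, 2118 and 1873 (2.15-fold), and betaTry from 2828, 3672 and 3391 to 1098, 1010 and 1676 (2.67-fold). Jon25Bi fell 2.82-fold and Jon99Fi 3.44-fold, the most of the list.

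The decline of betaTry had begun before pupariation. The betaTry mean was 18897 and 7139 in the -18 and -4 h larvae, 3297 and 1261 on the arrays compared here, and 520 by 4 h. Jon65Aiv fell to a lesser degree, by 0.52 on the log2 scale (adjusted p = 0.000452), under the fold limit, and Jon65Ai, Jon66Cii, Ser8, etaTry and kappaTry had values between -0.16 and -0.05 that did not pass, nor did zetaTry at 0.08 and lambdaTry at 0.18. Replicate 3 was the highest of the 2 h arrays in betaTry, Jon25Bi and Jon99Fi and not in alphaTry or Jon65Aiii. Members of such families resemble each other in sequence, and the share of signal that their probe sets have in common is unknown.

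Structural genes of muscle were lower in part. Of 17 measured, 4 fell and none rose, where 1.85% of all tested probe sets fell. A value below 0 was found in 16 of the 17, at a median of -0.38, and in 6532 of all 12854 probe sets. Mlc1, a myosin light chain gene, went from 552, 669 and 627 to 302, 288 and 427 (1.84-fold, adjusted p = 0.000739). TpnC73F, which encodes a troponin C, fell 1.96-fold, Mlc2 1.75-fold and the tropomyosin gene Tm2 1.57-fold. The means of all 4 had been falling since -18 h. Over -18, -4, 0 and 2 h, Mlc2 had means of 15407, 1990, 1215 and 703, and TpnC73F 3696, 2420, 1825 and 934. The calls of TpnC73F, Mlc2 and Tm2 were lost without 2 h replicate 2, which read lowest of the 2 h arrays for Mlc2 and Tm2. Mlc2 also lost its call without 0 h replicate 2, and TpnC73F without 0 h replicates 1 or 2 or 2 h replicate 1.

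Of 28 genes of chitin turnover and binding measured, 4 rose, 1 fell and 23 gave no call, where 0.786% of all probe sets rose and 1.85% fell. The chitin deacetylase gene serp rose 2.02-fold, from 1611, 1979 and 1441 to 3083, 3519 and 3474, and its partner verm 1.84-fold, a call that was lost without 2 h replicate 3. Cht5, a chitinase of the moult, went from 2853, 2647 and 2232 to 5125, 4525 and 5087 (1.91-fold, adjusted p = 4.73e-05), and obst-A, a chitin-binding protein gene, rose 1.81-fold. A further probe set of serp rose by 0.84 on the log2 scale, while a further one of obst-A had 0.46 and did not pass. Cht2, another chitinase gene, fell 1.63-fold.

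Among 77 cytochrome P450 genes, 2 were higher and 5 lower, shares of a size to be read against the 0.786% and 1.85% of all probe sets. Besides Cyp18a1, Cyp310a1 rose 1.87-fold. Cyp9f2 fell 2.8-fold on its brighter probe set (1930, 2279 and 1942, then 771, 556 and 909) and by 1.51 on the log2 scale on its other, Cyp6d5 fell 2.66-fold, Cyp12a4 2.58-fold, Cyp4p1 2.18-fold and Cyp4d1 1.72-fold. Of 34 glutathione transferase genes GstD3 rose 1.75-fold and GstT4 fell 2.95-fold, and GstD3 lost its call without 2 h replicate 3, as GstT4 did without 4 of the 6 arrays in turn.

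Single members were called in several other lists, where 0.786% of all tested probe sets were called higher and 1.85% lower. With so few calls per list, they are no result about a list as a whole. Of 18 serpin genes, which encode protease inhibitors, Spn43Aa rose 2.1-fold, from 3073, 2860 and 2386 to 6348, 5113 and 5984 (adjusted p = 1.32e-05), and Spn28Dc 1.65-fold. Timp, an inhibitor of metalloproteases, rose 1.77-fold, the 1 call among 16 genes of disc eversion and JNK signalling. The death activator rpr rose 1.72-fold, from 242, 211 and 182 to 396, 284 and 423 (adjusted p = 0.0454), the 1 call among 14 cell death genes, and lost its call without 2 h replicate 3 (adjusted p = 0.24). The antimicrobial peptide gene CecC rose 2.45-fold from a level near the floor (52.3, 66.3 and 103.9, then 155, 168 and 234). A value above 0 was found in 13 of the 15 peptide genes, with no other call, and in 6240 of all 12854 probe sets. The list median was 0.51, and 0.36 without 2 h replicate 3. Set against the 0 h mean, it was -0.11, -0.13 and 0.27 on the 0 h arrays and 0.56, 0.22 and 0.61 on the 2 h arrays, so that the stages overlapped. Of the 15, 7 had an unadjusted p under 0.05, a share to be read against the 7.84% of all tested probe sets. Without 2 h replicate 3 this CecC probe set lost its call (adjusted p = 0.138), while the other CecC probe set kept it (log2 0.64, adjusted p = 0.0681).

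Further single falls were those of PPO2, a prophenoloxidase gene of crystal cells, 1.88-fold, the small heat shock gene l(2)efl, 1.85-fold, and the lipase gene mag, 1.92-fold. Each was the 1 call of its list, of 9, 20 and 20 genes measured, where 1.85% of all tested probe sets fell. A further probe set of PPO2 gave -0.01, so that the probe sets of this gene disagree. The call of mag, whose arrays overlapped, was lost without 0 h replicates 2 or 3 or 2 h replicates 1 or 2.

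Of 45 gene lists, 24 held no called member. They covered 448 measured genes, of which 29 (6.47%) had an unadjusted p under 0.05, where 7.84% of all tested probe sets did. They included 37 ribosomal protein, 64 mitochondrial ribosomal protein, 41 proteasome, 63 oxidative phosphorylation, 28 vacuolar ATPase, 24 cell cycle, 20 autophagy and 12 glycolysis genes. The medians of the 24 lists ran from -0.24 for 7 PGRP genes, which encode peptidoglycan recognition proteins, to 0.2 for 9 genes of the zona pellucida and apical matrix list. The 12 nervous system genes and the 18 testis genes also gave no call, and none of either list had an unadjusted p under 0.05. The fat body gene Fbp2 read 14326, 13812 and 13785 and then 13902, 14242 and 14709.

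Some transcripts passed through a peak or a trough at 2 h. Set against the mean of 0 and 4 h, 31 probe sets were higher (0.241%) and 49 lower (0.381%) at 2 h, 80 in all (0.622%). A probe set that only bends on its way up or down can also pass this contrast, and the 2 h arrays lay beyond all 6 arrays of 0 and 4 h in 10 of the 31 and 12 of the 49. The contrast shares its 0 and 2 h arrays with the comparison above.

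CG13026 had a peak, with 1225, 1130 and 642 at 0 h, 1640, 1837 and 1683 at 2 h and 590, 415 and 437 at 4 h (2.54-fold over the neighbours, adjusted p = 0.000165). CG9192 had 343, 311 and 290, then 1235, 800 and 1318, then 771, 613 and 486 (2.49-fold). CG13748 stood 2.29-fold, CG14356 2.09-fold and Qsox1, a sulfhydryl oxidase gene, 1.85-fold above the mean of its neighbours. CecC did so on both of its probe sets, by 2.5-fold and 1.54-fold, and CG1907, which encodes a mitochondrial carrier, by 1.55-fold. CG1907 passed chiefly through its fall to 4 h, with means of 691, 888 and 476 at 0, 2 and 4 h. Its change from 0 to 2 h was 0.37 on the log2 scale and gave no call. Both CecC probe sets carry suffixes that the array design uses where probes are few or shared with similar genes, so they are not independent measures of CecC. Of these genes, CG9192, CG13748 and CecC were higher still at 12 h than at 2 h.

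Among the 12 troughs beyond all neighbouring arrays, CG15096 gave the deepest, with 1780, 1664 and 1630 at 0 h, 427, 428 and 404 at 2 h and 603, 916 and 748 at 4 h (2.68-fold under the neighbours, adjusted p = 0.000815). Its mean returned to 2235 at 8 h. The amino acid transporter gene slif went from 2490, 2417 and 2500 to 832, 671 and 870 and back to 1154, 976 and 1082 (2.06-fold), and CG8785 had a 2.33-fold trough. The carbonic anhydrase gene CAH1 lay 2.03-fold, CG8483 2.05-fold and MESR3 1.94-fold under its neighbours. Osi6 (2.5-fold) and the cuticle protein gene Cpr65Ec (2.01-fold) passed chiefly through their rise at 4 h, since their change from 0 to 2 h was -0.28 and -0.3 and gave no call.

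**Figure D5:**
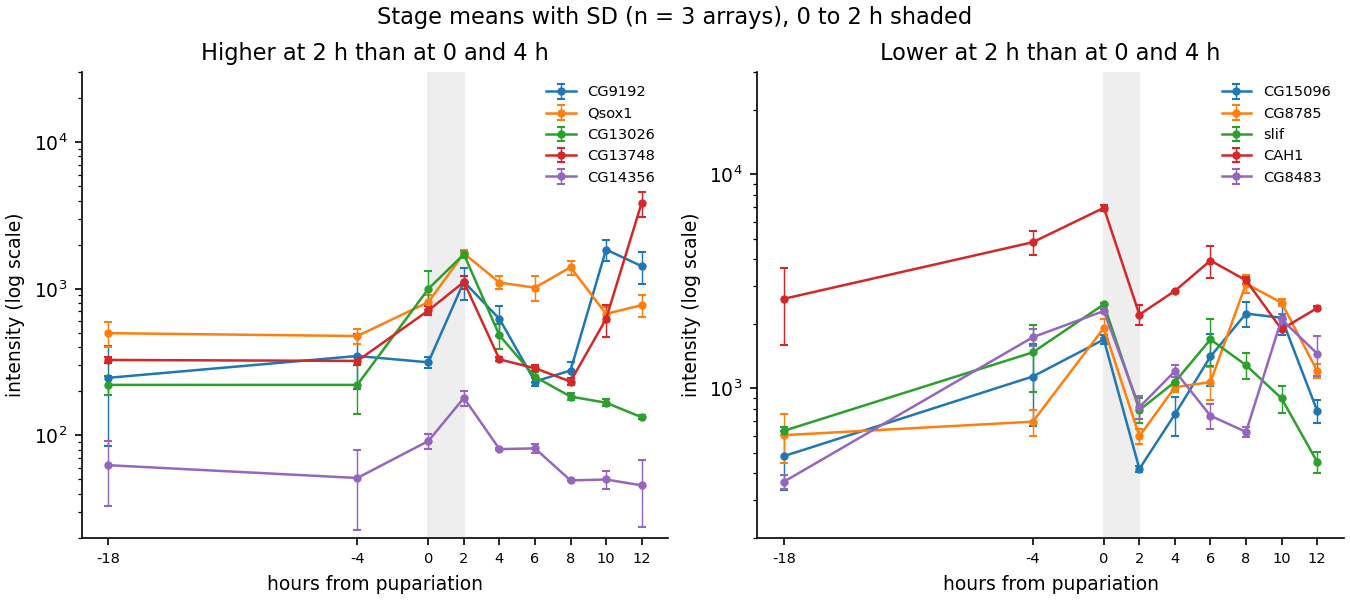
Mean intensity (log axis) with SD of 3 arrays at the 9 stages, in hours from pupariation, for 5 genes with a peak at 2 h (left) and 5 with a trough at 2 h (right), the step from 0 to 2 h shaded. Over 0, 2 and 4 h the mean of CG15096 went from 1691 through 420 to 756, and that of CG13026 from 999 through 1720 to 481.

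Called genes lay side by side in 9 places among 10285 measured genes in reference order, where at least 3 neighbours changed in 1 direction. The only run of rising genes was Eig71Ef, Eig71Eg, Eig71Eh and Eig71Ei. Falling runs included the trypsin genes alphaTry, epsilonTry, betaTry and deltaTry, the protease genes Jon25Biii, Jon25Bii and Jon25Bi, and Sgs5bis, Sgs5 and CG7606. The 4 trypsin genes fell 2.12- to 2.92-fold, with deltaTry measured by a probe set whose suffix the array design uses where unique probes are few. Other falling runs were CG8997, CG7916 and CG7953, which fell 2.02-, 2.98- and 1.89-fold, CG10910, CG5773, CG5770 and CG5767, which fell 1.7- to 2.35-fold, and Muc55B, CG10911 and CG10912, which fell 1.75-, 3.07- and 1.67-fold. CG7714, CG7715 and CG14302 fell 2.1-, 1.84- and 2.46-fold, and CG34176, CG15422 and CG15423 1.51-, 1.56- and 1.64-fold. Without 2 h replicate 3, Muc55B (adjusted p = 0.178) and CG10912 (adjusted p = 0.396) lost their calls and CG34176 fell under the fold limit (1.47-fold), which breaks both of their runs.

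The 7 stages outside the comparison place these genes in the wider course. None of the 101 rising probe sets had its highest other mean in a larval stage, where 30.3% of all tested probe sets peaked at -18 h and 13.2% at -4 h. The highest mean fell at 4 h for 37 of them (36.6%), at 6 h for 22 (21.8%) and at 8 h for 27 (26.7%). Over all tested probe sets these shares were 15.7%, 6.38% and 11.1%. The 238 falling probe sets had it at -4 h in 106 cases (44.5%), at -18 h in 75 (31.5%) and at 4 h in 1 (0.42%). Their share at -18 h was close to the 30.3% of all tested probe sets, while that at -4 h stood against 13.2%. Ddc, CG9822 and sona, for instance, were higher at -4 h than at 0 h, at 5511, 1672 and 585, while b, e and Pu were highest at 0 h. These are descriptions and were not tested.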

How the data were processed

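RNA of w1118 whole animals was measured on Affymetrix Drosophila Genome Arrays, 1 array per sample of 10 animals, 3 per stage. The authors normalized the arrays and computed expression with dChip, and deposited intensity on the linear scale, 1 column for each of the 27 arrays. No source used here names a genome build. The number of arrays limits the precision. Control probe sets numbered 0 in the table. Values were floored at 60.26 (the 10th percentile), taken to log2, and fitted by stage over all 27 arrays with limma 3.58.1 (lmFit and eBayes) in R 4.3.3 (18 residual degrees of freedom). Probe sets that exceeded the floor on every array of some stage were tested (12854, with 1112 left out), and calls needed a Benjamini-Hochberg adjusted p under 0.1 and 1.5-fold. The study's methods name SAM at the same false discovery rate, and limma stands in for it here.

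Of 13966 probe sets 12443 had 1 symbol in the platform table, 327 had several and 1196 had none. Symbols were updated through a RefSeq gene table (12394 matched), and 185 unnamed probe sets took a name from gene numbers in the study's supplementary lists. In gene lists each gene's value is that of the probe set with its highest mean over all 27 arrays, while the largest changes, peaks and troughs were ranked by probe set. Genes named are the 12 largest changes each way without overlap, up to 4 called members per list with the lowest p, all measured 20E regulators and glue genes, 8 peaks and 8 troughs, runs of neighbours, and genes the study follows. The comparison and all lists were chosen with earlier results of these data known. Alternatives covered the normalization, floor, filter, array weights, an intensity trend, the replicate block, a fit of only the compared arrays and the omission of each array. The fit was tested on simulated data. Figures were drawn with matplotlib 3.10.9.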

Additional observations from a re-analysis of the deposited data

How the results depend on the processing

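The count of 339 changed probe sets stayed within 1.5 times of itself under every alternative run. It was 344 with the replicate block, although the shared replicate numbers do not pair the samples (deviations of same-numbered 0 and 2 h arrays correlated at 0.552, -0.034 and -0.342), and 276 to 314 without single arrays. The share of higher calls moved from 29.8% to 40.1% without 2 h replicate 2. Array weights, whose estimation did not converge, gave 447 calls, and leaving out the 6 larval arrays, chosen after seeing the data, gave 385. The count of peaks and troughs was 80, 85 with the replicate block, and 53 to 78 without single arrays, the lowest without 2 h replicate 1. Higher calls there were 35 of 67 without 2 h replicate 2 and 19 of 78 without 2 h replicate 3. The glue median ran from -2.67 to -0.8 without single arrays. Without 2 h replicate 3, called members went from 3 to 6 for glue, 0 to 3 for larval cuticle, 1 to 0 for antimicrobial peptides and for cell death, 2 to 1 for glutathione transferases and 0 to 1 for PGRP genes. The cause was not tested in any of these.

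Of 94 called named probe sets, 63 kept their call under all 17 alternatives, and no called one changed sign. With only the 6 arrays of 0 and 2 h, 15 lost it, Sgs7, Sgs8 and Pcp among them. Signs turned only for uncalled values near 0, and Sgs1 passed the test without 2 h replicate 3. With array weights Sgs1 had 0.04 and Eip63E 0.01, and with a floor at the 20th percentile Edg78E had -0.01 and Uro -0.02. Over the omissions of single arrays the range was -0.04 to 0.1 for EcR, -0.08 to 0.12 for Edg78E, -0.22 to 0.09 for Eip63E, -0.17 to 0.06 for Hr4, -0.93 to 0.37 for Sgs1, -0.05 to 0.09 for Uro, -0.15 to 0.03 for cbt and -0.14 to 0.31 for usp. Signals close to the floor, such as those of Cyp18a1, CecC and Eip63F-1 at their lower stage, understate a fold. The same can hold where a probe set levels off above the floor, as Ilp8 did at 342 at 4 and 6 h, and this was not tested.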
